A study of Mus musculus with 2 samples.

Results

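GLORI-detected m6A sites at DRACH motifs in 5′ UTRs numbered 2269 across a cerebellum and a cerebrum library of newborn hybrid mice, out of 219409 sites of any sequence in both libraries together and 97384 at DRACH. A site was taken when its 5-mer in the GRCm38 genome was DRACH (A, G or T first, then A or G, then AC, and last any base but G, with the methylated A in the centre) and when the longest covering protein-coding transcript of GENCODE M21 placed it in its 5′ UTR. That transcript had to have a complete coding sequence (CDS), both UTRs and 2 or more exons. The 2269 sites lay in the 5′ UTRs of 987 transcripts from 956 genes. This is 10.1% of the 9440 genes that held a DRACH site anywhere in the exons of coding transcripts meeting these conditions. The same UTRs held 8531 further DRACH adenosines that neither library listed, and these served as the comparison.

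N6-methyladenosine (m6A) is the most common internal mark of mRNA and is written in the nucleus by the Mettl3-Mettl14 complex, which acts at DRACH motifs. Only a minority of motifs is methylated, and m6A is best known from long internal exons and from the region around the stop codon and 3′ UTR. Exon junction complexes, which sit on mRNA just upstream of spliced junctions, are known to keep methylation away from the exon ends around them. In 5′ UTRs, m6A has been studied mainly for its part in translation initiation, where the ribosome scans from the cap to the start codon and can be held up by upstream open reading frames (uORFs).

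GLORI converts unmethylated adenosines to inosine with glyoxal and nitrite, so that an adenosine still read as A marks m6A at single-base resolution. One library was made from cerebellum and 1 from cerebrum, both from poly(A)+ RNA of a female mouse at postnatal day 0 of the F1r cross, in which the mother was C57 (C57BL/6J) and the father PWK (PWK/PhJ). Both libraries were GLORI-treated, and no untreated control was part of the samples used here. The deposited values are positions without methylation rates or read counts, so depth is unknown and a listed (called) site has no level. An adenosine that is not listed may be unmethylated, below the cutoffs or too thinly covered. Each tissue is represented by 1 library, without a replicate, so no test was run. Shares are given with 95% Wilson intervals and differences with intervals built from them, which cover counting error over adenosines only and treat sites of 1 UTR as separate although they share a transcript.

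The tissue labels were compared with genes that carried a DRACH site anywhere in each library, since a site requires that the RNA was covered. Of 15 cerebellum and hindbrain genes, 10 had a site in the cerebellum library and 5 in the cerebrum library, whereas 5 and 14 of 15 forebrain genes did. The defining cerebellar genes Pcp2, Atoh1 and Ptf1a had no counted site in either library, and a single-exon gene could not have one under this rule. The cerebrum library listed 188295 sites and the cerebellum library 79355, and how far depth or tissue set that gap cannot be told apart.

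Sequences of sites found in both libraries are shown for genes with the most 5′ UTR sites, together with uncalled adenosines that carry the identical 5-mer in the same UTR, because they show that the motif alone did not separate listed from unlisted positions. Each runs 5′ to 3′ on the transcript strand with 12 nt on either side of the adenosine in GRCm38, and the capitals mark the DRACH 5-mer.
Pcdh17, called in both, chr14:84445714-84445738, plus strand: catctcttccAGACTccgatttcct
Pcdh17, uncalled, chr14:84445924-84445948, plus strand: gaataaggagAGACTgcctggtgcc
Abl1, called in both, chr2:31689760-31689784, plus strand: gaaaagtcttGAACCctcttctgga
Abl1, uncalled, chr2:31688597-31688621, plus strand: gtcggagctgGAACCgggtgccggg
March4, called in both, chr1:72535165-72535189, minus strand: acctcttcaaAGACTccagctgccc
March4, uncalled, chr1:72536095-72536119, minus strand: tccgacttacAGACTgcagctggag
Zdhhc5, called in both, chr2:84710754-84710778, minus strand: ttgatctgccTGACTctgcatggtt
Zdhhc5, uncalled, chr2:84711394-84711418, minus strand: tcagagacatTGACTaacctggaaa
Nrxn3, called in both, chr12:89813355-89813379, plus strand: gctggaatttAAACTgcccatctgt
Nrxn3, uncalled, chr12:89812868-89812892, plus strand: aaaaatgtccAAACTccttggatgt
Gpbp1, called in both, chr13:111487511-111487535, minus strand: tatcttcaaaGAACTtggatatttc
Tulp4, called in both, chr17:6138838-6138862, plus strand: gccaataaaaGAACTtggtttgaaa

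All of these lie in 5′ UTR exons. The Pcdh17 pair lay in exon 1 of 4, the called adenosine 369 nt and the uncalled one 159 nt upstream of the start codon. The Abl1 pair lay in exon 1 of 11, at 35 nt and 1198 nt upstream. The Zdhhc5 pair lay in exon 2 of 12, with the called site 448 nt and the uncalled one 66 nt from the nearest splice junction.

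The sites were concentrated in a small number of UTRs. Of the 987 UTRs, 521 held 1 site, 200 held 2, 152 held 3 or 4 and 114 held 5 or more. Those 114 UTRs carried 834 sites, or 36.8% of the total. Pcdh17, which encodes a protocadherin of cell adhesion, had the most with 19 sites, of which the cerebellum library listed 14, the cerebrum library 15 and both 10. They covered the UTR from 2318 nt to 111 nt upstream of the start codon, all within 1 exon of 5091 nt that had no junction in the 2532-nt UTR.

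The other genes at the top of the ranking had varied roles. The presynaptic adhesion gene Nrxn3 had 11 sites over 2 transcripts. Ntng1, a netrin-G anchored to the axon membrane, had 11 sites, and Lrrc4c, which encodes its binding partner, had 12. The potassium channel genes Kcna4 and Kcnd2 had 11 and 10. The transcription factor Gpbp1 had 14 sites, the tyrosine kinase Abl1 12, the ubiquitin ligase March4 12, the palmitoyltransferase Zdhhc5 12, the acyltransferase Gpat4 11 and the homeobox factor Meis2 11. Also high in the ranking were Tor1aip2 with 15, Dsel and Nol4 with 13 each, Ankrd50 with 12, Tulp4 with 11, and Igsf3 and Gm38394 with 10 each.

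Such UTRs held both listed and unlisted adenosines, in places with runs of either kind. In Gpbp1, 14 of 28 DRACH adenosines were listed, 11 of them in both libraries, and all 14 lay in a single exon of 948 nt between 2 junctions. Tulp4 had 11 of 19 listed, 10 in both libraries. In Abl1, 12 of 29 were listed, all between 35 nt and 699 nt upstream of the start codon in a UTR of 1256 nt. Dlx1, a homeobox gene of forebrain interneurons, had 6 of 34 listed in a longer UTR of 1881 nt. One of the transcripts of Tor1aip2, which encodes a partner of torsin, had 10 of 13 listed, or 76.9%.

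**Figure D1:**
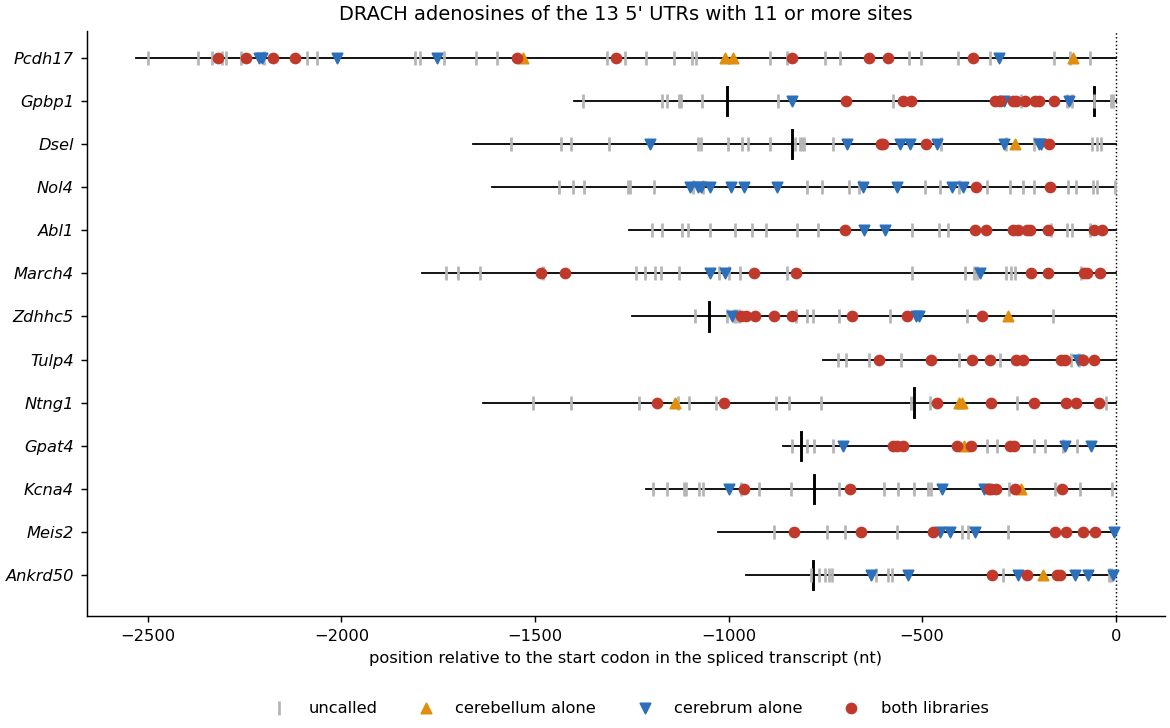
DRACH adenosines along the 13 5′ UTRs with 11 or more sites, by distance from the start codon in the spliced transcript (nt); grey ticks are uncalled adenosines, symbols are sites by library, and tall black bars are splice junctions. In Gpbp1 and Zdhhc5 every site lies in the exon between or beyond the junctions that holds most of the UTR, and in Abl1 the sites lie in the 699 nt next to the start codon.

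Genes whose 5′ UTR carried sites usually carried them elsewhere too: 760 of the 956 also had DRACH sites in the CDS, 808 in the 3′ UTR and 674 in both. The 5′ UTR was the sole location in 62 genes, or 6.49%. Among these, 2700049A03Rik and Vmn1r87, a vomeronasal receptor gene, had 6 sites each, Kantr had 5, and Klhl1 and the centrosomal gene Cntrob had 4 each. The Vmn1r87 sites all lay in annotated exon 2 of 3484 nt.

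Over all multi-exon transcripts with a DRACH site anywhere, 5.61% of 40448 DRACH adenosines in 5′ UTRs were listed, against 8.36% of 389866 in the CDS and 11.4% of 394235 in 3′ UTRs. This order held in each library. The cerebellum library listed 2.86% in 5′ UTRs, 4.38% in the CDS and 6.17% in 3′ UTRs, and the cerebrum library 5.11%, 7.74% and 10.3%. Within the 987 UTRs chosen for having a site, the share was 21% over 10800 adenosines (10.7% in the cerebellum library and 19.1% in the cerebrum library), which the choice itself raises. For the same transcripts the share was 15.3% in the CDS and 15.2% in the 3′ UTR, and these carry no such condition, so the 3 values are not a ranking.

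UTRs with a site were longer and lay on longer exons. Their median length was 539 nt (quartiles 366.5 and 796 nt, n = 987) with a median of 9 DRACH adenosines, against 235 nt (141 and 363 nt, n = 6908) and 3 for UTRs with DRACH adenosines but no site. The longest exon that held part of the UTR had a median of 751 nt against 308 nt. More motifs in a UTR give more chances of a listed one, so the comparison with uncalled adenosines was kept within the same UTRs.

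The cerebellum library listed 1156 of the sites in 546 genes and the cerebrum library 2068 in 903 genes, with 955 in both. Of the cerebellum sites, 82.6% (95% interval 80.3% to 84.7%) were also in the cerebrum library, and of the cerebrum sites 46.2% (44.0% to 48.3%) were in the cerebellum library. For CDS sites of the same transcripts these shares were 88.3% and 55.5%, and for 3′ UTR sites 85.3% and 57.1%. Both intervals of the 5′ UTR sites lay below those of the CDS, and against the 3′ UTR only that of the cerebrum sites did (84.2% to 86.4% of cerebellum sites and 55.8% to 58.4% of cerebrum sites there). Over all multi-exon transcripts the gaps were smaller, with 85.9% and 48.5% in the CDS and 82.1% (81.6% to 82.5%) and 49.2% in 3′ UTRs, so the share of cerebellum sites found again was then not lower in 5′ UTRs than in 3′ UTRs.

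Some UTRs had more sites in 1 library alone. Lrfn3, a synaptic adhesion gene, had 6 sites and all were in the cerebellum library alone. The glutamate receptor subunit gene Grin2b had 8 sites in the cerebellum library, 4 of which the cerebrum library also listed. Lef1, a transcription factor of Wnt signalling, had 5 and 1. The splicing regulator Mbnl1 had 7 and 5, of which 4 were in both. Towards the cerebrum, Nol4 had 2 sites in the cerebellum library and 13 in the cerebrum library, St3gal1, a sialyltransferase gene, had 1 and 10, and Dlx1 had 0 and 6. Ntng1 ran against the overall gap between libraries, with 11 sites in the cerebellum library and 8 in the cerebrum library. Without read counts, methylation and coverage of the transcript cannot be told apart for any of these genes.

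Lists of genes with related roles were then counted, each beside the 10.1% of all genes. As above, only sites in exons of coding transcripts of 2 or more exons counted, so single-exon genes are not among those with a site. Among chromatin and transcription regulators of the developing brain, 12 of 31 genes with a DRACH site anywhere had one in the 5′ UTR (38.7%, 23.7% to 56.2%), among them Auts2, Bcl11b, Chd8, Foxp2, Meis1, Meis2, Nfib, Satb1, Tcf4, Tcf7l2 and Zic1. Their 5′ UTRs held more motifs, with a median of 7 DRACH adenosines per gene in the list against 2 over all genes. Auts2 had 9 sites, Tcf4 7 and Nfib 4, whereas Bcl11b, Foxp2 and Satb1 had 1 each.

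Among genes known for translational control through their 5′ UTR, 4 of 13 had a site (30.8%, 12.7% to 57.6%), namely Cdkn1b, Hif1a, Myc and Ntrk2. Ntrk2, the receptor of the growth factor BDNF, had 4 sites between 20 nt and 246 nt upstream of the start codon, and only the nearest was also in the cerebellum library. Myc had 3 sites over 2 transcripts, all in the cerebrum library alone. Among genes controlled by uORFs during stress and growth, 3 of 9 had a site (33.3%, 12.1% to 64.6%): Bace1 and Eif5 with 1 each, and Slc35a4 with 5, all 5 inside a uORF. These 2 lists had medians of 5 and 6 DRACH adenosines in the 5′ UTR against 2 over all genes. No site was found in the 5′ UTR of 21 genes for eIF3 and cap-binding initiation factors, which allows a share of up to 14.3%, or of 15 genes for m6A writers, readers and erasers, which allows up to 20%. The latter 2 lists had a median of 1 DRACH adenosine in the 5′ UTR.

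The 5-mer separated sites from uncalled adenosines in the same UTRs. GGACH or GAACT, the forms usually given as preferred, made up 45.1% (43.1% to 47.2%) of the 2269 sites and 26.0% (25.1% to 27.0%) of the 8531 uncalled adenosines, a difference of 19.1 percentage points (16.9 to 21.3). Each library was also set against the adenosines that it did not list itself, which include sites of the other library. The difference was then 16.05 points for the cerebellum library (44.4% against 28.3% of 9644). For the cerebrum library it was 19.7 points (45.9% against 26.3% of 8732). For sites of either library, the difference was 22.2 points (19.2 to 25.3) when every UTR counted once.

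The last base of the motif set the clearest division. T stood there in 61.2% of sites and 28.2% of uncalled adenosines, and 36.6% of the DRACH adenosines followed by CT were listed, against 15.6% of those followed by CA and 9.69% of those followed by CC. All 5 of the 5-mers listed most often ended in T: GAACT with 42.0% (38.1% to 45.9%), GGACT with 40.6% (37.4% to 43.9%), AGACT with 35.9%, AAACT with 35.3% and TGACT with 34.6%. The intervals of GAACT and GGACT overlap, so these are not ordered. GGACC, of the preferred group, was listed at 19.1% (16.8% to 21.7%), below AAACT, which is outside it. At the other end, AAACC was listed at 2.95% and TAACC at 1.85%.

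Over all 5′ UTRs the 18 5-mers stood in nearly the same order as in the CDS and 3′ UTR (Spearman's rho 0.967 and 0.928 over 18 5-mers, as a description of 5-mers that share bases and libraries). Their levels differed more. GGACT was listed at 11.1% (10.1% to 12.2%) in 5′ UTRs, 17.9% in the CDS and 33.9% in 3′ UTRs. AAACT, in contrast, was listed at 11.2% (9.81% to 12.7%), 12.8% and 12.5% in the 3 regions.

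**Figure D2:**
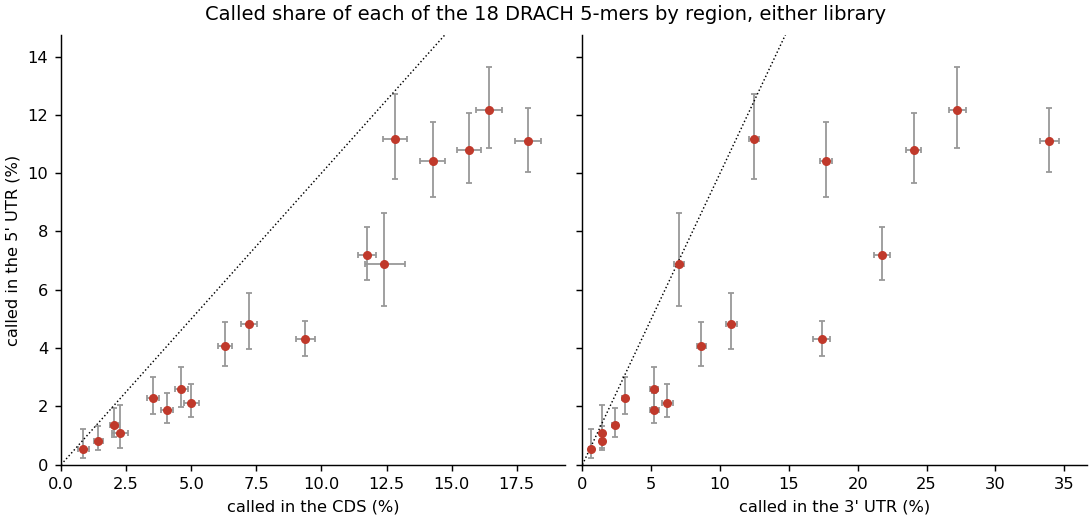
Listed share of each of the 18 DRACH 5-mers (1 point each, either library, 95% Wilson intervals) in 5′ UTRs against the CDS (left) and the 3′ UTR (right) of all multi-exon transcripts with a DRACH site; the dotted line marks equal shares. Every point lies below the line on the left, and on the right the 5-mers listed most often in 3′ UTRs lie farthest below it.

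Bases outside the 5-mer differed as well. Counted from the adenosine at position 0, T at position +4 was found in 38.4% of sites and 19.4% of uncalled adenosines, and T at +3 in 34.7% and 22.9%. Upstream, A at position -4 was found in 33.6% and 23.5%, and T at -3 in 28.6% and 18.2%. G was scarcer around sites, with 17.4% against 30.4% at -4. Weighting the uncalled adenosines to the 5-mers of the sites left the -4 A at 22.3% and the -3 T at 19.1% of uncalled adenosines.

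Splice junctions and exon length divided the 5′ UTR motifs next. Sites lay 100 nt or more from the nearest junction in 83.1% (81.5% to 84.6%) of cases, against 72.8% (71.9% to 73.7%) of uncalled adenosines, and in exons of 400 nt or more in 86.3% (84.9% to 87.7%) against 75.8% (74.9% to 76.7%). The differences were 10.3 points (8.47 to 12.1) and 10.5 points (8.82 to 12.2). Against uncalled adenosines within 100 nt of a site both kept their sign, at 8.24 and 5.49 points. Against uncalled adenosines in exons that hold a site, the junction difference was 0.637 points (-1.19 to 2.38), which came from a rise and a fall: within such exons the called share was 16.4% (13.1% to 20.4%) within 25 nt of a junction, 37.7% (35.2% to 40.3%) from 100 nt to below 200 nt and 19.5% (18.3% to 20.7%) at 400 nt or more. The exon length difference was then -2.50 points (-4.14 to -0.946). Length is fixed within an exon and longer exons have more chances to hold a site, so the choice of exons bears on that value. How far it does was not tested.

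Over all 5′ UTRs the listed share was 1.27% (1.00% to 1.62%) within 25 nt of a junction, 1.96% from 25 to 49 nt, 4.28% from 50 to 99 nt and 7.07% (6.51% to 7.67%) from 100 nt to below 200 nt. Beyond that it stayed between 6.71% and 8.17%. In the CDS it began at a like 1.05% but reached 26.2% from 200 nt to below 400 nt. These values take exons of every length together. In 5′ UTR exons of 400 nt or more alone, the share was 15.8% (14.4% to 17.2%) from 100 nt to below 200 nt. There it fell to 9.92% from 200 nt to below 400 nt and 8.17% at 400 nt or more. By exon length, the share in 5′ UTRs was 0.276% (0.134% to 0.570%) in exons under 100 nt and 0.572% from 100 nt to below 200 nt, and it reached 13.2% (12.3% to 14.1%) in exons of 800 to 1599 nt and 11.3% (10.4% to 12.3%) in longer ones.

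The regions were also compared in exons of like structure. In exons of 400 nt or more and at least 100 nt from a junction, 9.80% (9.37% to 10.2%) of 5′ UTR motifs were listed, against 24.7% (24.4% to 24.9%) in the CDS and 11.3% (11.2% to 11.4%) in 3′ UTRs. The median exon length in these sets was 800, 2195 and 3406 nt. In exons of 1600 nt or more, 5′ UTRs were at 11.3% (10.4% to 12.3%), 3′ UTRs at 10.4% (10.3% to 10.5%) and the CDS at 23.1%. For GGACT alone in exons of 400 nt or more away from junctions, the shares were 16.8%, 42.8% and 33.5%. In exons under 200 nt, 0.492% of 5′ UTR motifs and 0.696% of CDS motifs were listed.

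**Figure D3:**
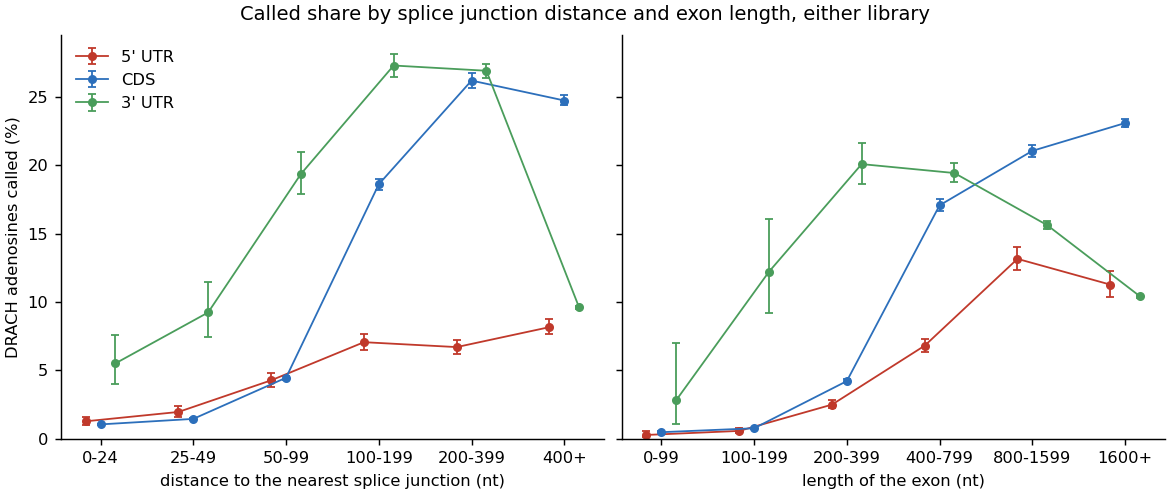
Share of DRACH adenosines listed in either library (%, 95% Wilson intervals) by distance to the nearest splice junction (left, nt) and by length of the exon (right, nt) in 5′ UTRs, CDS and 3′ UTRs of all multi-exon transcripts with a DRACH site. All 3 regions are low next to junctions. With exons of every length together, the 5′ UTR levels off near 7% to 8% where the CDS goes on to 26.2%.

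One kind of 5′ UTR exon stood apart. Where the start codon lay in a second or later exon, 12.1% (11.3% to 12.9%) of the 5′ UTR motifs in that exon were listed, against 5.81% (5.47% to 6.18%) where the start codon lay in the first exon, 2.88% in first exons that end before it and 2.64% in internal UTR exons. The gap was wider in exons of 400 nt or more away from junctions: 24.1% (22.4% to 25.9%) over 361 transcripts in later exons with the start codon, and 8.08% (7.59% to 8.60%) over 1746 transcripts in first exons with it. Internal UTR exons in that setting were at 12.8% (9.59% to 16.9%) over 320 motifs, and first exons that end before the start codon at 6.19%. Among CDS motifs in any exon of 400 nt or more away from junctions, 24.7% were listed, in exons with a median of 2195 nt. Both libraries showed the gap between later and first exons with the start codon. The shares were 13.4% against 3.999% in the cerebellum library and 22.3% against 7.43% in the cerebrum library.

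The kinds of exon differed in other ways too. Within long exons, motifs in later start codon exons had a median GC content of 47.5% in the surrounding window and lay at a median of 594.5 nt from the annotated 5′ end, against 59.4% and 260 nt in first exons, and the exons had medians of 1389 nt and 812 nt. Within each band of GC content the later exons were higher, for example 30.1% (26.8% to 33.7%) against 13.1% (11.7% to 14.7%) at 40% to 49% GC and 18.8% (14.4% to 24.1%) against 6.08% (5.28% to 6.99%) at 60% to 69%. At 70% GC or more the intervals touched, 7.41% (3.44% to 15.2%) against 3.03% (2.41% to 3.81%), over 81 motifs in later exons. At 400 nt or more from the 5′ end the shares were 23.9% (21.9% to 26.0%) and 13.02% (11.96% to 14.2%). Zdhhc5, Mbnl1 and Chd8, a chromatin remodeller, are among the genes whose sites all lay in a second exon with the start codon.

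Around the start codon the pattern depended on which UTRs were taken. In the UTRs with a site, 26.4% (24.6% to 28.2%) of sites and 16.1% (15.3% to 16.9%) of uncalled adenosines lay within 100 nt upstream of it, a difference of 10.3 points (8.32 to 12.3). Against uncalled adenosines within 100 nt of a site it was 4.18 points (1.92 to 6.46). Over all 5′ UTRs the last 100 nt had the lower share instead, 4.57% (4.22% to 4.94%) against 5.88% (5.41% to 6.39%) in the 100 nt before. UTRs without a site had a median length of 235 nt and entered only this second comparison. Their part in the different result was not tested.

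In the exon that holds the start codon, 5.80% of motifs were listed in the last 100 nt of the UTR and 6.52% in the first 100 nt of the CDS, 11.3% from 100 nt to below 200 nt and 19.98% (18.6% to 21.5%) from 300 nt to below 400 nt. Where that exon was 800 nt or more, the share rose within the UTR from 7.49% (5.23% to 10.6%) at 700 to 800 nt upstream to 18.3% (16.3% to 20.6%) at 100 to 200 nt upstream. It was 16.1% (14.4% to 17.8%) in the last 100 nt and 16.3% (14.8% to 17.8%) in the first 100 nt of the CDS, so no step was seen at the start codon itself. From 200 nt to below 300 nt into the CDS it was 22.2% (20.5% to 24.1%).

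**Figure D4:**
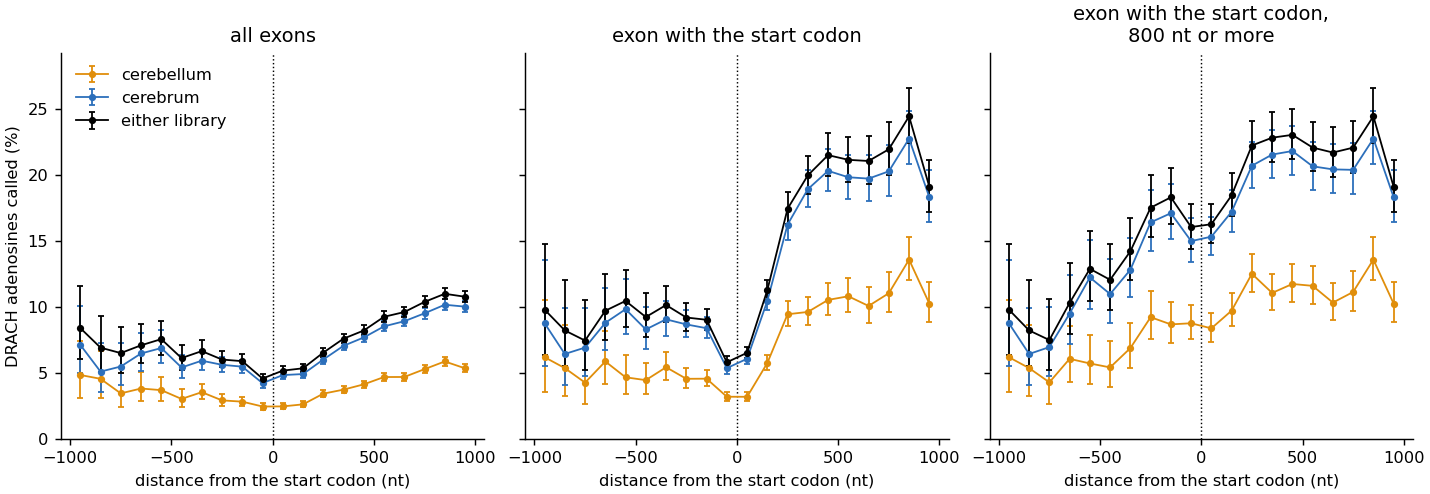
Share of DRACH adenosines listed (%, 95% Wilson intervals) in 100-nt windows around the start codon (nt; the UTR is negative) for all exons, for the exon with the start codon, and for that exon where it is 800 nt or more, by library. In the long exons the shares on either side of the start codon are 16.1% and 16.3%.

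Sites were sparse next to the annotated 5′ end. Of the sites, 6.61% (5.66% to 7.71%) lay within 100 nt of it, against 13.4% (12.7% to 14.2%) of uncalled adenosines, a difference of -6.82 points (-8.03 to -5.52). It was -1.34 points (-2.67 to 0.0417) against uncalled adenosines within 100 nt of a site, an interval that includes 0, and -3.37 points without the first 50 nt. Over all 5′ UTRs the listed share was 1.07% (0.830% to 1.39%) in the first 50 nt and 11.99% (11.4% to 12.6%) at 400 nt or more from the end, and in long exons away from junctions it was 2.65% and 15.3%. The annotated end need not be the one used in these tissues, and the part of low read coverage near transcript ends was not tested, since there are no read counts.

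GC content moved with the same shares. Over all 5′ UTRs 11.5% (10.5% to 12.6%) of motifs in windows under 40% GC were listed and 1.58% (1.31% to 1.92%) of those at 70% GC or more. Sites had a median of 49.5% GC within 50 nt on either side, and uncalled adenosines in the same UTRs 53.5%. Among adenosines within 100 nt of a site the decline was smaller, from 44.5% (41.2% to 47.8%) under 40% GC to 32.8% (27.8% to 38.2%) at 70% or more.

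For uORFs the result depended on which UTRs were taken. A uORF was any ATG in the UTR with an in-frame stop in the transcript, except those in frame with the CDS that run into it. Inside a uORF lay 37.99% (36.02% to 40.01%) of sites and 37.5% (36.5% to 38.6%) of uncalled adenosines. The difference was 0.468 points with an interval of -1.76 to 2.73. Over all 5′ UTRs, 6.40% (6.00% to 6.82%) of motifs inside uORFs and 5.22% (4.96% to 5.49%) of those outside were listed, and the motifs inside lay in longer exons, with medians of 461 nt and 386 nt. In long exons away from junctions the shares were 10.3% (9.61% to 11.1%) and 9.50% (8.97% to 10.1%). Dsel, which encodes an enzyme of dermatan sulfate synthesis, had 8 of its 13 sites inside uORFs, and Pcdh17 had 5 of 19.

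Predicted RNA structure differed at the site and next to it. Folding of 50 nt on either side with ViennaRNA gave a mean probability of being unpaired of 0.574 for the adenosine of a site (SD 0.367 over 2269) and 0.657 (SD 0.370 over 8531) for uncalled adenosines, a difference of -0.0820 (-0.0990 to -0.0650). The bases before the adenosine were also lower, with 0.383 against 0.487 at position -2 and 0.421 against 0.543 at -1. After it the order turned: the sites were the less paired at +1 (0.560 against 0.504) and +2 (0.580 against 0.515). This was not particular to these bases. Sites were also the less paired from +3 (0.529 against 0.474) to +8 and upstream from -8 to -4 (0.489 against 0.439 at -4). They were again the less paired from +12 (0.482 against 0.448) to +15 (0.474 against 0.450). Uncalled adenosines weighted to the 5-mers of the sites had 0.632 at the adenosine, and the difference from them was smaller, at -0.0577 (-0.0747 to -0.0407). With the same weights, uncalled adenosines had 0.429 at -2 and 0.495 at -1. Sites in both libraries had a mean of 0.549 (0.526 to 0.573), those in the cerebrum library alone 0.595 (0.573 to 0.616). The fold is computed for naked RNA and was not measured.

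**Figure D5:**
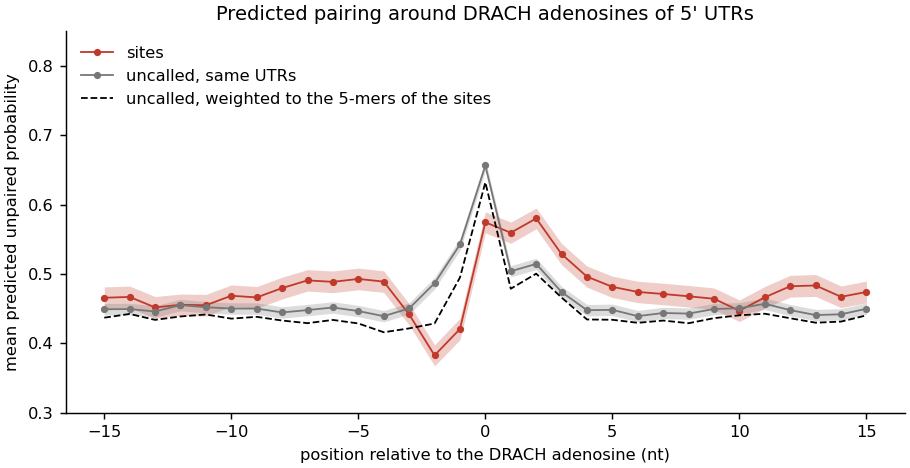
Mean predicted probability of being unpaired from 15 nt before to 15 nt after the adenosine (position 0) for sites, for uncalled DRACH adenosines of the same 5′ UTRs (bands, 95% intervals of the mean over adenosines) and for uncalled adenosines weighted to the 5-mers of the sites (dashed). Sites lie lower at positions -2 to 0 and higher from +1 to +8, from +12 to +15 and from -8 to -4.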

How the data were processed

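The authors deposited, for 1 cerebellum and 1 cerebrum GLORI library, single-base m6A positions with strand in the mm10 build (GRCm38). Per the methods and labels, sites were called with GLORI-tools on reads mapped to mm10 and to a PWK-substituted mm10, and the union of both sets was kept where the rate exceeded 0.1 with more than 8 reads. The deposited files hold neither rates nor counts, so depth is unknown.

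Each position was read from GRCm38 and placed on the longest GENCODE M21 coding transcript covering it, a release other than the one the authors named. All DRACH adenosines of these transcripts were enumerated with Python 3.11.15, pandas 2.3.3, pysam 0.24.0 and samtools 1.23.1, and windows of 50 nt on either side were folded with ViennaRNA 2.7.2. Intervals are Wilson or Newcombe at 95%, and no test was run. A share of 0 is given with the limit that 3 counts allow. Placement was checked by a second scan of the same annotation for 600 DRACH adenosines, with 600 of 600 recovered (100%). In a single set of calls simulated with known odds, the intervals of 3 of 3 results covered the true difference, and the run was set to stop otherwise. Each adenosine was drawn independently there, so this does not check the intervals for sites that cluster within UTRs. Named genes are the 20 with most sites, the 5 with most sites in each library alone, the 5 with most sites and none elsewhere, and list members with a site. Some genes that meet this rule are not reported here. Pcp2, Atoh1 and Ptf1a, from the tissue lists, were named after their values were seen. Sequences follow the same ranking outside chromosome 18. Members, lists and comparisons were chosen with earlier results of these data known. Alternatives changed the isoform, the comparison adenosines, the weighting and the fold window.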

Additional observations from a re-analysis of the deposited data

Results flagged for a closer look

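Sites outside DRACH were also listed in 5′ UTRs, and no comparison above used them. The cerebellum library had 432 and the cerebrum library 1637, so DRACH made up 72.8% of the 5′ UTR sites in the cerebellum library and 55.8% in the cerebrum library. Of the 1852 in either library, 217 were in both, which is 50.2% of those in the cerebellum library. In all, 716 (38.7%) lay in a 5′ UTR that also held a DRACH site. The most frequent 5-mers among them were GGATT with 91, GGACG with 53 and GTACT with 41. Their origin was not tested.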

How the results depend on the processing

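Of 64 alternative values, 44 stayed within the interval of the value reported (for a count, within 1.5 times it), 19 moved further and 1 reversed. The 2269 sites became 955 when both libraries had to list them. With uncalled adenosines limited to exons that hold a site, 24.9% of motifs were called, the junction difference was 0.637 points, the exon length difference reversed to -2.50 points and the 5′ end difference was -4.86 points. Length is fixed within an exon, so the choice of exons bears on the exon length value, and how far it does was not tested. With uncalled adenosines within 100 nt of a site, the differences were 23.5 points for GGACH or GAACT, 8.24 for the junction, 5.49 for exon length, 4.18 for the start codon and -1.34 (-2.67 to 0.0417) for the 5′ end. Sites in both libraries gave 12.4 points for the junction, 14.6 for the start codon and -0.109 for the unpaired probability. With every UTR counted once, the values were 22.2, 7.41 and -10.1 points for the 5-mer, junction and 5′ end. Weighting to the 5-mers gave 12.2 points for exon length, -8.12 for the 5′ end and -0.0577 for the unpaired probability. Leaving out the first 50 nt gave -3.37 points for the 5′ end, and the uORF difference, whose interval held 0 throughout, was then -0.687 points. No paired analysis was possible because each tissue has 1 library and no test was run. Depth is not known and limits every statement on an unlisted adenosine.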

Other observations

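The share of 5′ UTR DRACH adenosines called ranged from 3.77% to 8.83% over the 19 autosomes, and the X chromosome held 71 of the sites and the Y chromosome 0. A further 101 DRACH sites lay in 5′ UTRs of transcripts without an intron and were left out by the rule. For 45 of the 2269 sites, another coding isoform placed the position outside its 5′ UTR, and 3 were not DRACH once the transcript was spliced.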
